A study of Mus musculus with 52 samples.

Results

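The microRNA precursors mir-143 (MI0000257) and mir-145a (MI0000169) form a neighbouring pair of genes that was read across the white fat around the gonads of mice that carry huntingtin alleles of several CAG repeat lengths. They were chosen by accession and are 2 of the 1187 precursors in the deposited tables, and all 52 libraries were used. The rule names accessions and no measured value, but the choice was made with earlier results of these data known. The length recovered for each precursor from the deposited counts and RPKM values (counts scaled to length and library total) was 63 nucleotides for mir-143 and 70 nucleotides for mir-145a. These equal the lengths of Mir143 and Mir145a in RefSeq, where the genes lie next to each other. The genome build behind the files is not given in the sources used here, so no coordinates are printed.

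Both microRNAs are processed from a shared primary transcript that is known from smooth muscle cells and pericytes, where serum response factor and its partner myocardin drive it. In smooth muscle, miR-145 represses the transcription factors Klf4 and Klf5 and miR-143 represses Elk1, and both favour the contractile state over the proliferating one. In cultured preadipocytes miR-143 is known to rise during differentiation into fat cells and to repress the kinase Mapk7. In white fat the pair can therefore come from vessel walls as well as from cells of the adipocyte lineage. The libraries were made from whole tissue, in which fewer cells of a type and less RNA per cell cannot be told apart.

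The mice were C57BL/6, 6 months old and either wild type (WT) or heterozygous for a knock-in huntingtin allele named by its CAG repeat number, 20 (Q20), 80 (Q80), 92 (Q92), 111 (Q111), 140 (Q140) or 175 (Q175). The series title gives them as models of Huntington's disease, and its design text calls the wild type animals littermates. WT and Q20 mice were housed together and each longer allele with its own kind, so the length of the allele and housing cannot be told apart in any comparison of a longer allele with WT or Q20. There were 25 female and 27 male libraries in 14 groups of genotype and sex. Groups had 4 libraries, or 3 in the case of Q92 males and of females of WT, Q111 and Q140. The fat around the gonads is a different depot in each sex, so sex and depot cannot be told apart. The labels do not state that the libraries of a group came from separate animals, so the p-values measure the spread between these libraries, which may be technical.

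Total estimated counts ran from 1812067 to 5487948 per library. WT and Q175 libraries belong to 1 series of library numbers (15 libraries) and the other genotypes to another (37 libraries). A principal component computed over the 356 precursors with at least 10 counts in 7 or more libraries held 45.6% of the variance. It was above 5 in 14 male libraries and 1 female library, replicate 2 of Q140. The labelled tissue could not be checked against marker microRNAs, because the files name precursors by accession alone and no reference used here pairs accessions with names.

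mir-143 was one of the dominant microRNAs of this fat and mir-145a was well detected. The share of mir-143 among the counts of a library was 15.3% ± 6.78 (SD, n = 52), lay between 7.34% and 42.3%, and ranked second by mean share among all precursors. It was the most abundant precursor in 9 libraries, the second in 37, the third in 5 and the fourth in 1. mir-145a took 0.471% ± 0.246 (SD, n = 52), between 0.205% and 1.45%, and ranked 29th by mean share, with ranks from 9 to 47 in single libraries. At these counts the 95% Wilson interval of a share spanned at most 0.0482 percentage points to either side, which covers counting error alone. Per unit of precursor length, the RPKM of mir-143 was higher than that of mir-145a in every library, by a median of 36.0-fold and between 21.5-fold and 77.5-fold.

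Levels were compared between libraries as CPM, counts scaled to library size with edgeR's TMM factors, and are given in kCPM (1 kCPM is 1000 CPM). Such a value can exceed a library's share, since TMM rescales a library whose most abundant precursors take up many reads. mir-143 lay between 68.3 and 701 kCPM over the 52 libraries, a 10.3-fold range with a median of 122, or 5.25-fold without male replicate 2 of Q20. mir-145a lay between 2.06 and 19.2 kCPM, a 9.32-fold range with a median of 3.81. In 10 libraries mir-143 was above 200 kCPM, 6 of them male.

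**Figure D1:**
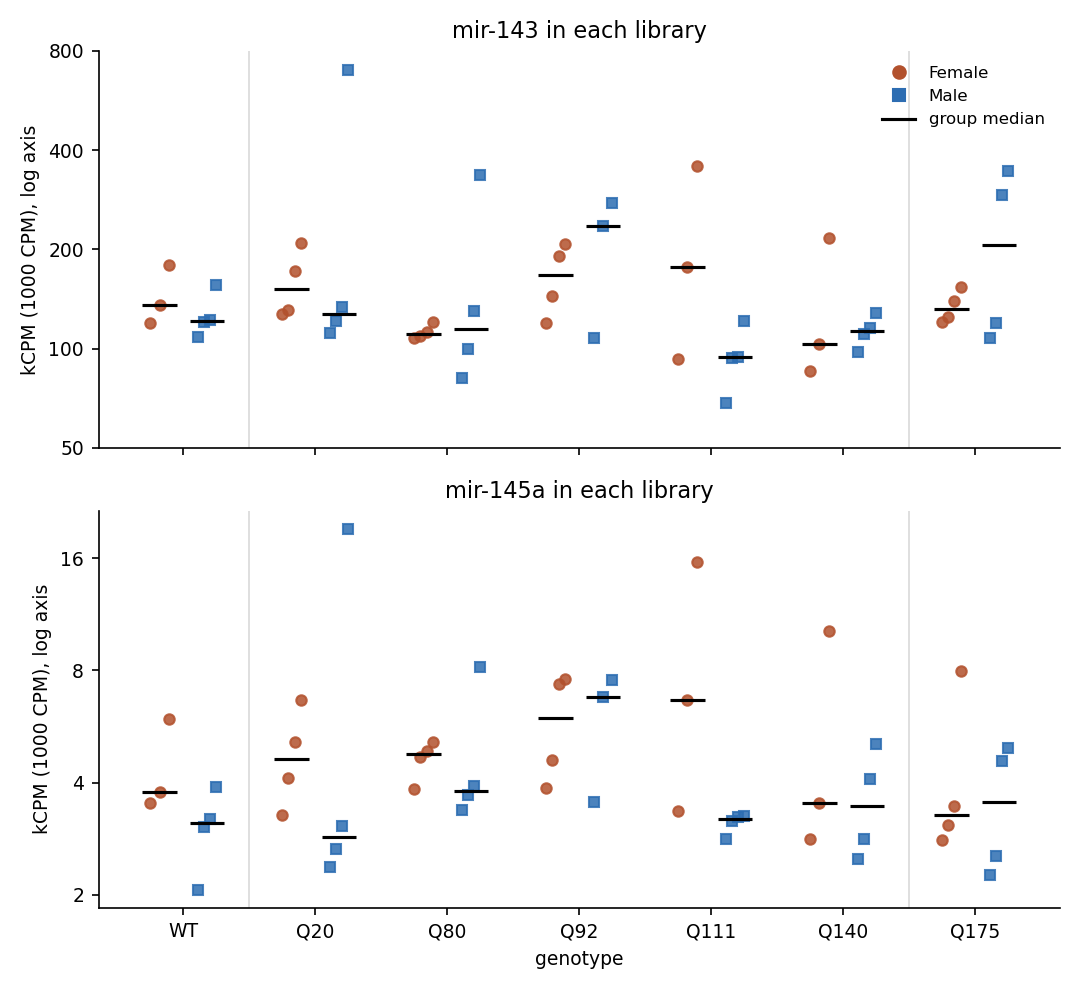
Levels of mir-143 (upper panel) and mir-145a (lower panel) in each of the 52 libraries, in TMM-scaled kCPM on a log axis, by genotype and sex; each point is a library, black bars are group medians and grey lines part the WT and Q175 library series from the other. On this scale the highest library for both was male replicate 2 of Q20, at 701 and 19.2 kCPM, with a TMM factor of 0.603. As an unscaled share of counts, mir-145a was highest in female replicate 1 of Q111 (1.45%, against 1.16% in that Q20 library).

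In the WT libraries mir-143 was 179, 136 and 120 kCPM in females. In WT males it was 120, 122, 109 and 156 kCPM. The sexes overlapped, and the highest and lowest WT libraries were a female and a male. In Q20 females mir-143 was 131, 172, 208 and 128 kCPM. In Q20 males it was 122, 701, 134 and 112 kCPM. Replicate 2 thus stood far above the other 3 Q20 males, which lay within the range of the WT libraries.

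In Q80 females mir-143 was 121, 108, 113 and 109 kCPM, the narrowest spread of the 14 groups. Q80 males had 130, 335, 81.4 and 99.5 kCPM, with replicates 1 and 2 above every Q80 female. Q92 females had 119, 144, 191 and 208 kCPM. Levels spread widely again in Q92 males, with 108, 236 and 277 kCPM.

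Q111 females had 359, 93.3 and 177 kCPM of mir-143, and Q111 males had 68.3, 94.0, 122 and 94.0. The lowest library of the study was thus a Q111 male, and the second highest was a Q111 female. Q140 females had 217, 85.4 and 103 kCPM. Q140 males had 116, 111, 97.4 and 128 kCPM, inside the range of the Q140 females.

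In Q175 females mir-143 was 139, 124, 120 and 154 kCPM. In Q175 males it was 120, 346, 108 and 292 kCPM. Replicates 2 and 4 of the Q175 males stood above every WT library, while replicates 1 and 3 were near the lowest WT males. Ordered by median, Q92 males (236), Q175 males (206) and Q111 females (177) were the highest groups for mir-143 and Q111 males (94.0) the lowest. In this order each group overlapped the next, in 13 of 13 neighbouring pairs.

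mir-145a was 5.93, 3.76 and 3.52 kCPM in WT females. WT males had 2.06, 3.89, 3.05 and 3.19 kCPM, and 3 of the 4 were below every WT female. Q20 females had 5.15, 3.27, 6.68 and 4.11 kCPM of mir-145a. Q20 males had 2.37, 19.2, 2.66 and 3.06 kCPM. Replicate 2 again stood far above, and the other 3 Q20 males were below every Q20 female.

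Q80 females had 4.69, 5.14, 3.85 and 4.85 kCPM of mir-145a, and Q80 males had 3.69, 8.17, 3.91 and 3.37. Replicate 2 of the males was the highest of these 8 libraries. Q92 females had 4.60, 3.87, 7.61 and 7.35 kCPM and Q92 males 3.55, 6.80 and 7.55. The sexes overlapped in both genotypes.

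In Q111 females mir-145a was 15.7, 3.36 and 6.67 kCPM. In Q111 males it was 3.23, 3.25, 3.14 and 2.82 kCPM, so every female was above every male. Of 356 precursors tested, 12.4% had all Q111 females above all Q111 males, so this arrangement was common in these libraries. Q140 females had 10.2, 2.83 and 3.53 kCPM and Q140 males 2.81, 4.10, 2.50 and 5.09. Female replicate 1 was above the other Q140 libraries.

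Q175 females had 3.08, 3.46, 2.80 and 7.98 kCPM of mir-145a, and Q175 males had 2.54, 4.97, 2.26 and 4.57. Both sexes included libraries within and above the range of the WT males. Q92 males (6.80), Q111 females (6.67) and Q92 females (5.97) had the highest medians of mir-145a, and Q20 males (2.86) had the lowest although they include the library with the highest value. Each group again overlapped the next, in 13 of 13 neighbouring pairs.

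Both precursors varied more between libraries of a group than most others did. The pooled within-group SD on the log2 scale was 0.63 for mir-143 and 0.68 for mir-145a, against a median of 0.34 over 243 precursors with a mean of at least 10 CPM. Of these precursors, 81.5% had a smaller SD than mir-143 and 82.3% a smaller one than mir-145a. Without male replicate 2 of Q20 the within-group SD was 0.53 for mir-143 and 0.56 for mir-145a.

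The levels of the 2 precursors went together from library to library. In females Pearson's r between their log2 CPM was 0.821 and Spearman's rho 0.656 (n = 25, Benjamini-Hochberg adjusted permutation p = 0.00012 and 0.00294 over 12 relations). In males r was 0.822 and rho 0.504 (n = 27, adjusted permutation p = 0.00012 and 0.0248). The unadjusted p of both Pearson correlations was at or near 1e-05, the smallest that the permutations can give. Without the 2 libraries farthest from the median of mir-143, r was 0.674 in females and 0.706 in males.

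Within the WT and Q175 library series r was 0.776 in females (n = 7, unadjusted permutation p = 0.0409) and rho was 0.607 (unadjusted permutation p = 0.165). In males of that series r was 0.813 (n = 8, unadjusted permutation p = 0.0115), with rho 0.810 (unadjusted permutation p = 0.0214). The male value of r rests on Q175 replicates 2 and 4, without which it was 0.341. Within the Q20 to Q140 series r was 0.869 in females (n = 18) and 0.898 in males (n = 19), and without the 2 farthest libraries 0.739 and 0.703. The rank correlation was lower, with rho 0.773 in these females and 0.475 in these males, and 0.676 and 0.267 without the 2 farthest. Both precursors of a library share its scaling factor, which enters both values.

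**Figure D2:**
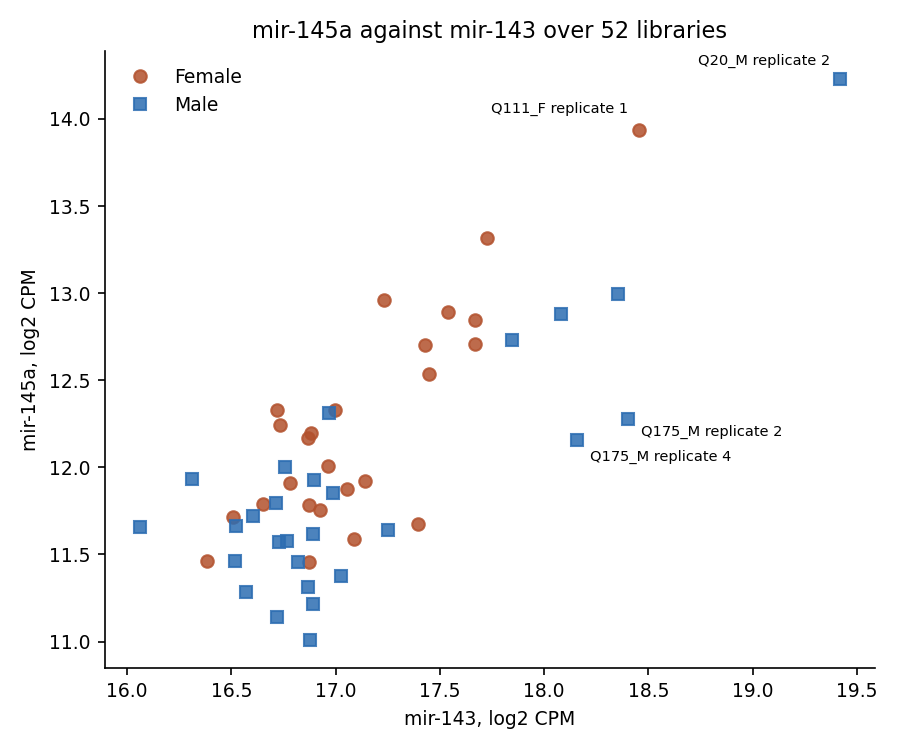
mir-145a against mir-143 in the 52 libraries, both as log2 TMM-scaled CPM; each point is a library, circles are females and squares males. The points run along a common diagonal (r of 0.821 in females and 0.822 in males), with male replicates 2 and 4 of Q175 to its right.

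After the mean of each genotype and sex group was subtracted, each precursor was the closest match of the other among 243 precursors, with r = 0.865 over 52 libraries. Without male replicate 2 of Q20 this r was 0.799, and each was still the closest match of the other. The next closest to mir-143 were MI0000157 (r = 0.797) and MI0000579 (r = 0.740). The next closest to mir-145a were MI0000141 (r = 0.701) and MI0006127 (r = 0.695). Without male replicate 2 of Q20 these 4 values of r were 0.705, 0.622, 0.686 and 0.605. MI0000579 and MI0006127 then each came 4th in closeness. MI0000157, MI0000579 and MI0006127 were low, with means of 22.0, 21.4 and 30.1 CPM. These values describe libraries that share their scaling, and no p is given for them.

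mir-143 moved with the depth of the male libraries, and both precursors had positive values of r with depth in each sex. In males r between the log2 total count of a library and mir-143 was 0.642 and rho was 0.642 (n = 27, adjusted permutation p = 0.0012 and 0.00294). Without the 2 libraries farthest from the median total r was 0.644. Within the series r was 0.740 in the 19 Q20 to Q140 males and 0.297 in the 8 WT and Q175 males (unadjusted permutation p = 0.469). In females r was 0.374 (n = 25, adjusted permutation p = 0.117). For mir-145a it was 0.367 in males and 0.349 in females (adjusted permutation p = 0.117 and 0.131). Within the Q20 to Q140 series r was 0.546 for mir-143 in females (n = 18, unadjusted permutation p = 0.0185). For mir-145a it was 0.588 in females (n = 18) and 0.623 in males (n = 19), with unadjusted permutation p = 0.0101 and 0.00324. Without the 2 libraries farthest from the median total these were 0.246, 0.321 and 0.403. In WT and Q175 females r was 0.348 for mir-143 and 0.199 for mir-145a (n = 7), and in WT and Q175 males it was -0.0665 for mir-145a (n = 8). A library's total includes its mir-143 counts, and the part of depth in the other results was not tested.

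Principal component 1, recomputed without both precursors, had r = 0.436 with mir-143 and r = 0.444 with mir-145a in males, neither of which passed adjustment (n = 27, adjusted permutation p = 0.0539 for each). The values of rho were 0.217 and 0.353 (adjusted permutation p = 0.334 and 0.174). In females r was -0.303 and -0.135 (n = 25, adjusted permutation p = 0.141 and 0.588). The female values of rho were -0.238 and 0.212 (adjusted permutation p = 0.334 for each). Without the 2 libraries farthest on the component the female r turned to 0.163 and 0.508, so the sign of r rests on those libraries. The female rho was then -0.0603 and 0.426, each with its sign kept.

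The ratio of the 2 precursors needs no scaling between libraries, and it was lower in females. The log2 ratio of mir-143 to mir-145a counts was 4.88 ± 0.356 in females (SD, n = 25) and 5.23 ± 0.440 in males (SD, n = 27), a difference of -0.35. The female mean was below the male mean in 7 of 7 genotypes. In WT the means were 5.06 and 5.40, and in Q20 5.08 and 5.43. In Q80 they were 4.61 and 4.94, in Q92 4.85 and 5.08, in Q111 4.68 and 4.90, and in Q140 4.73 and 5.01. In each of these 6 genotypes the single libraries of the sexes overlapped.

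In Q175 the log2 ratio was 5.50, 5.17, 5.42 and 4.27 in females. In Q175 males it was 5.56, 6.12, 5.58 and 6.00. Every Q175 female was below every Q175 male, by a narrow margin between the nearest libraries, and the means were 5.09 ± 0.563 and 5.81 ± 0.290 (SD, n = 4 each). How often the ratios of other pairs of precursors part these groups was not tested, and the lowest female value is that of replicate 4 alone. The ratio also differed between the library series. Males of the WT and Q175 series had a mean of 5.61 ± 0.396 (SD, n = 8) and those of the Q20 to Q140 series 5.07 ± 0.358 (SD, n = 19). Females had 5.08 ± 0.406 (SD, n = 7) and 4.80 ± 0.313 (SD, n = 18). Genotype and series cannot be told apart here, and these differences in the ratio are given as a description without a test. With principal component 1 the ratio had r = -0.157 and rho = -0.525 in females (n = 25), and r = 0.0609 in males (n = 27). The female r was -0.649 once the 2 libraries farthest on the component were left out. Within the series the female rho was -0.0357 in WT and Q175 (n = 7) and -0.263 in Q20 to Q140 (n = 18). Without the 2 farthest libraries of each series the female r was 0.433 and -0.665. No p is printed for the ratio because it joins both precursors.

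**Figure D3:**
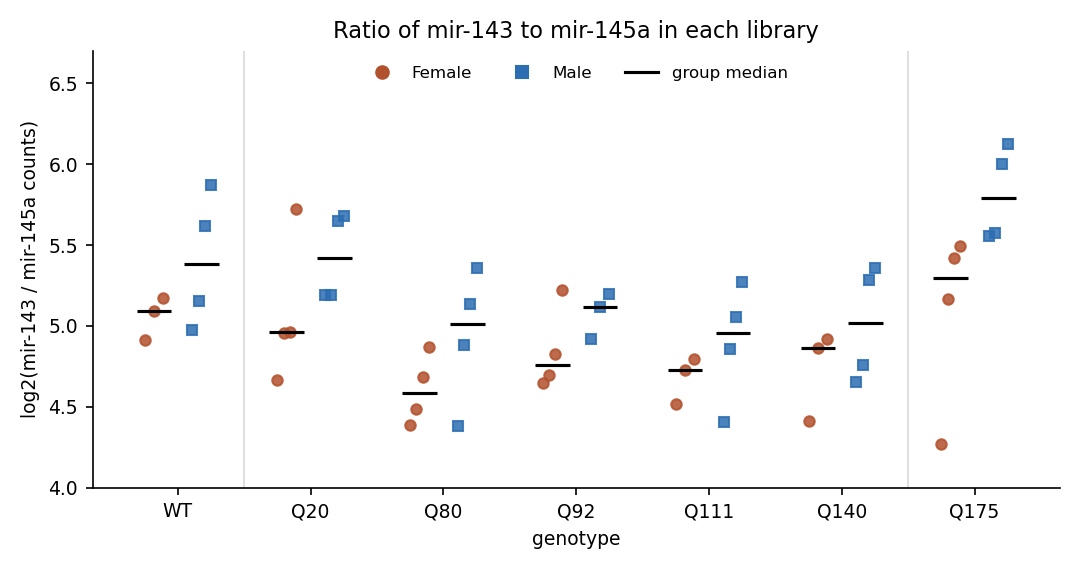
Log2 ratio of mir-143 to mir-145a counts in each library, by genotype and sex; each point is a library, black bars are group medians and grey lines part the WT and Q175 series from the other. Male replicate 2 of Q20, the highest library for both precursors in TMM-scaled kCPM, had a ratio of 5.19, the lower end of the Q20 males. The 4 Q175 males were at 5.56 to 6.12.

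The comparison of the sexes asks whether the pair differs between fat around the female and the male gonads. With genotype as a covariate over the whole set of libraries, the female to male log2 change was -0.13 for mir-143 (SE 0.19) and 0.30 for mir-145a (SE 0.20). Neither passed edgeR's quasi-likelihood test after Benjamini-Hochberg adjustment over all precursors (adjusted p = 0.591 and 0.209), while 48.3% of the 356 precursors tested did. In WT and Q175 libraries the changes were -0.26 (SE 0.27) and 0.40 (SE 0.27), edgeR adjusted p = 0.479 and 0.254. There 30.5% of precursors passed. In Q20 to Q140 libraries they were -0.034 (SE 0.25) and 0.30 (SE 0.27), edgeR adjusted p = 0.942 and 0.402, beside 36.2% of precursors that passed.

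Single libraries moved these values in both directions. Without female replicate 1 of Q111 the change of mir-145a was 0.17 over all genotypes and 0.15 in Q20 to Q140, and without female replicate 1 of Q140 it was 0.20 and 0.12. In WT and Q175 it was 0.19 without female replicate 4 of Q175 and 0.26 without female replicate 1 of WT. There mir-143 was at -0.087 without male replicate 2 of Q175. Without male replicate 2 of Q20, mir-145a was higher in females by a log2 change of 0.51 (SE 0.17, edgeR adjusted p = 0.0123) over all genotypes, and by 0.56 (SE 0.22, edgeR adjusted p = 0.0401) in Q20 to Q140. In these fits 48.5% and 37.4% of all precursors passed. mir-143 then changed by 0.045 (SE 0.17) and 0.18 (SE 0.21), which did not pass. When the 15 libraries with a score above 5 on principal component 1 were left out, which left 24 females and 13 males, both were higher in females. The log2 change was 0.54 for mir-143 (SE 0.14, edgeR adjusted p = 0.00276) and 0.83 for mir-145a (SE 0.20, edgeR adjusted p = 0.00132). In Q20 to Q140 it was 0.64 (SE 0.19, edgeR adjusted p = 0.00897) and 0.89 (SE 0.23, edgeR adjusted p = 0.00471). Of all precursors 37.7% and 36.2% passed in these fits. That omission removed male libraries almost alone, among them every male above 200 kCPM of mir-143. Every female above that level was kept, so these changes cannot be told apart from that selection. The component was computed with both precursors included, and the part of what it measures in the result was not tested.

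The comparison of Q175 with WT asks whether the longest allele changes the pair within 1 library series. With sex as a covariate the log2 change was 0.36 for mir-143 (SE 0.27) and 0.11 for mir-145a (SE 0.27), and neither passed (edgeR adjusted p = 0.446 and 0.861). Of 308 precursors, 4.55% did. In females the changes were -0.15 (SE 0.35) for mir-143 and -0.073 (SE 0.41) for mir-145a, edgeR adjusted p = 0.912 and 0.951. In males mir-143 changed by 0.81 (SE 0.33), with an unadjusted edgeR p of 0.0297 and an adjusted p of 0.156, and mir-145a by 0.26 (SE 0.38, adjusted p = 0.752). Among males 3.9% of precursors passed. The high male values are those of replicates 2 and 4, and all 4 Q175 males but 1 of 4 WT males were above 5 on principal component 1.

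The difference of the Q175 change between the sexes, females minus males, was -0.96 for mir-143 (SE 0.48) and -0.34 for mir-145a (SE 0.55). Neither passed (edgeR adjusted p = 0.788 and 0.907), and 0 of 308 precursors did in edgeR or DESeq2, with 16 at an unadjusted p under 0.05 in edgeR. For Q175 against WT in females both tools called 0 as well, with 23 at an unadjusted p under 0.05 in edgeR.

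Q80, Q92, Q111 and Q140 were each compared with the same Q20 libraries, which asks whether a longer allele changes the pair, and the 4 comparisons share these controls. For mir-143 the log2 change was -0.62 in Q80 (SE 0.38), -0.19 in Q92 (SE 0.39), -0.50 in Q111 (SE 0.40) and -0.76 in Q140 (SE 0.40). None passed (edgeR adjusted p = 0.412, 0.817, 0.643 and 0.269). For mir-145a it was -0.30 in Q80 (SE 0.40), 0.012 in Q92 (SE 0.42), -0.093 in Q111 (SE 0.42) and -0.38 in Q140 (SE 0.42), and none passed (edgeR adjusted p = 0.712, 0.990, 0.961 and 0.692). Of 345 precursors, 1.45% passed for Q80, 4.06% for Q92, 0.0% for Q111 and 0.29% for Q140. For Q111 DESeq2 also called 0, and 56 had an unadjusted p under 0.05 in edgeR.

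All 4 comparisons have male replicate 2 of Q20 among their controls. Without it the log2 change of mir-143 was 0.047 in Q80, 0.47 in Q92, 0.076 in Q111 and -0.093 in Q140. That of mir-145a was 0.47, 0.78, 0.58 and 0.39, all higher than Q20, and none passed (edgeR adjusted p between 0.146 and 0.502). Thus for each precursor the sign of the change turned in 3 of the 4 comparisons when that library was left out. In single libraries, every Q80 female was below every Q20 female for mir-143, an arrangement found in 6.74% of 356 precursors, whereas the 2 groups overlapped for mir-145a.

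The slope over repeat length from Q20 to Q140, in log2 per 100 repeats, was -0.58 for mir-143 (SE 0.30, edgeR adjusted p = 0.293) and -0.24 for mir-145a (SE 0.32, adjusted p = 0.785). Of 345 precursors 0.29% passed. Without male replicate 2 of Q20 the slopes were -0.018 and 0.41. The slope in females minus that in males was 1.27 for mir-143 (SE 0.58) and 1.40 for mir-145a (SE 0.61), and neither passed (edgeR adjusted p = 0.828 for each). In this contrast edgeR and DESeq2 called 0 of 345 precursors, with 18 at an unadjusted p under 0.05 in edgeR. Without that library the differences were 0.46 (SE 0.57) and 0.41 (SE 0.60).

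Across the library series, Q20 against WT gave log2 changes of 0.65 for mir-143 (SE 0.36) and 0.71 for mir-145a (SE 0.38), edgeR adjusted p = 0.146 and 0.132. Here 34.3% of 356 precursors passed, and genotype and series cannot be told apart. Without male replicate 2 of Q20 the changes were 0.059 and -0.017. Q175 against Q20 gave -0.28 (SE 0.34) and -0.60 (SE 0.36), edgeR adjusted p = 0.544 and 0.210, beside 28.7% of precursors that passed. Without that library they were 0.35 and 0.14.

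**Figure D4:**
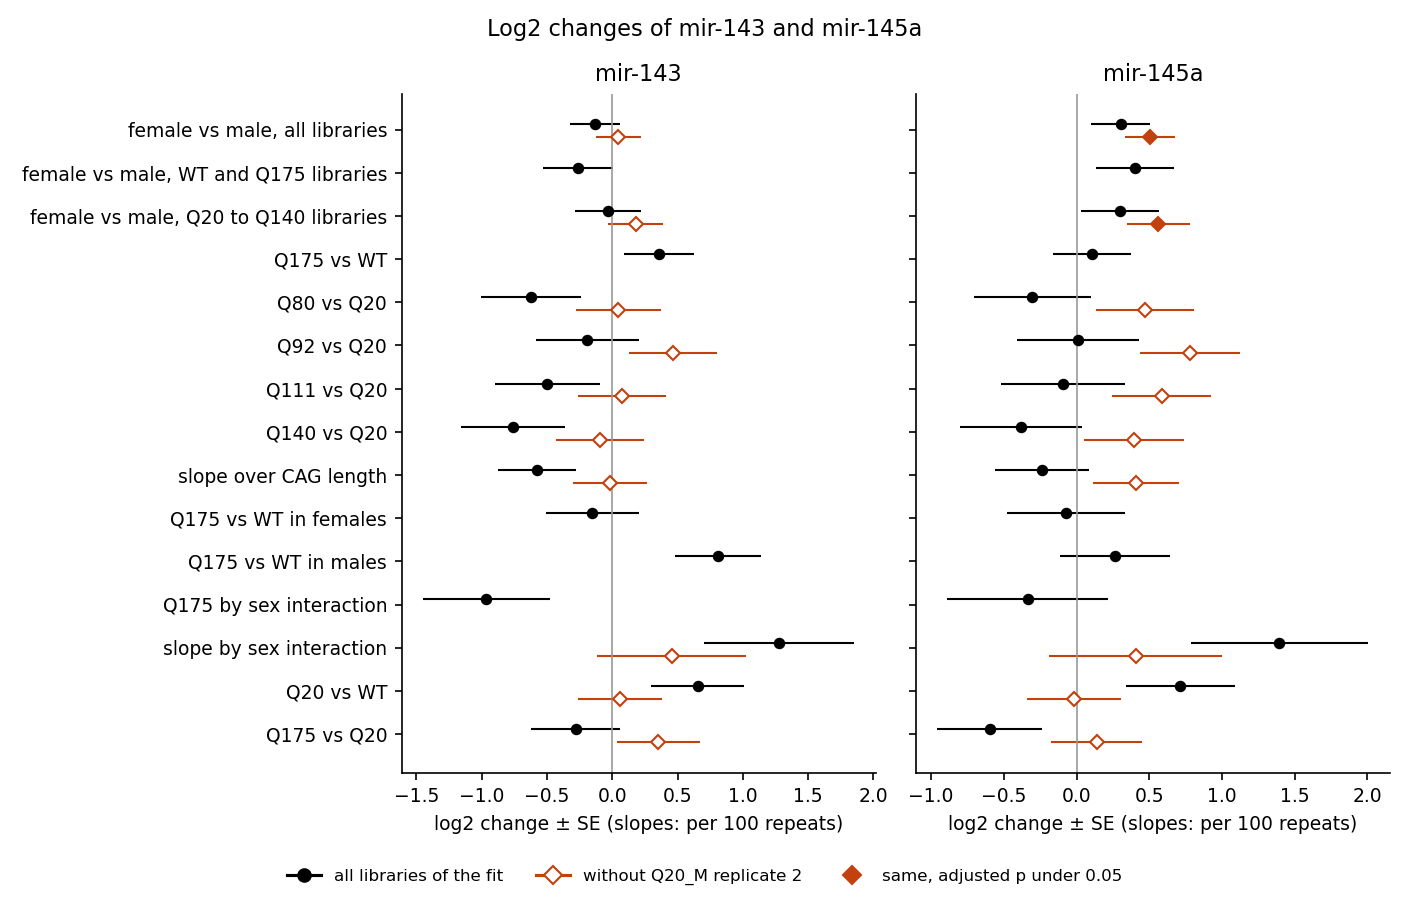
Log2 changes of mir-143 (left) and mir-145a (right) in the 15 comparisons, with SE bars, from edgeR; slopes are per 100 repeats. Black circles use all libraries of the comparison, and diamonds leave out male replicate 2 of Q20 where it is part of the comparison, filled where the adjusted p was under 0.05. No black circle passed the test, and the diamonds of mir-145a passed in the sex comparisons over all libraries and over Q20 to Q140.

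Over the 15 comparisons and both precursors, 0 of 30 log2 changes passed edgeR's test and 0 of 30 passed in DESeq2, with 3 at an unadjusted p under 0.05 in each tool. With limma on log2(RPKM + 1), mir-145a passed between the sexes over all libraries (limma adjusted p = 0.0255), where 153 of 356 precursors did. It did not pass in WT and Q175 or in Q20 to Q140 libraries (limma adjusted p = 0.200 and 0.0937). A change that did not pass is not shown to be absent, since the SE of a single log2 change ran up to 0.61.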

How the data were processed

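Small RNA was sequenced from gonadal white fat in 52 libraries, from total RNA extracted with the Qiagen miRNeasy kit and enriched before Illumina library construction, per the labels' protocols. The submitters' processing notes name CASAVA 1.8.2. Which aligner, build, miRBase release and counter followed is not given in the sources used here. Estimated counts per precursor were deposited, 89.1% of them whole within 1e-04, and the authors also deposited RPKM values. Both precursors had values of their own, identical to those of 0 other precursors.

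Estimated counts were rounded to whole numbers and tested with edgeR 4.0.16 in R 4.3.3 (TMM scaling, robust quasi-likelihood F test, Benjamini-Hochberg over precursors that reached 10 counts in 7 or more fitted libraries, threshold 0.05). CPM and log2 CPM (prior count 2) used TMM library sizes. Females were compared with males with genotype as a covariate, and genotypes with sex as a covariate. Q175 and WT were fitted in their own 15 libraries and Q20 to Q140 in theirs, and comparisons across both used all 52. Correlations used 100000 random permutations for every set of libraries. As a check of the code, the fits were also run on simulated data with known changes. The simulated precursors all had the same relative spread and no library stood apart. That run therefore does not bear on the results of these precursors.

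Alternatives were DESeq2 1.42.0 and its size factors, scaling without the 5 most abundant precursors, no filter, limma 3.58.1 on log2(RPKM + 1), a replicate block, lane as a covariate, omission of the libraries above 5 on principal component 1, of 2 Q140 libraries that stood apart from their sex, and of each library in turn. Lane was read from a tag in the library names that is not spelled out there as a lane. The tag was L1 in 23 and L3 in 14 of the Q20 to Q140 libraries, and L5 in all WT and Q175 libraries. The members, lists and alternatives were chosen with earlier results of these data known. Named precursors were the 2 members and, for each, those most correlated with it within groups. The rule took 5, of which at most 2 besides the partner are printed. 11 lists of marker and pathway microRNAs with 76 members matched 0 precursors, since no table used here pairs accessions with names, and were not tested. The planned relation to an epithelial list was replaced by relations to library total, to principal component 1 and of that component to the ratio, chosen after seeing the data. Libraries with the same replicate number did not deviate together (r above 0.1 in 26 of 76 pairs, median -0.04), so the numbers were not treated as pairs. Within groups, chi-square per degree of freedom between libraries was at least 26.2, so none was treated as a duplicate.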

Additional observations from a re-analysis of the deposited data

Results flagged for a closer look

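Dixon's test compares the gap between an extreme library and its nearest neighbour with the whole range of its group. It was run for mir-143, mir-145a and their log2 ratio in the 10 groups of 4 libraries, 30 sets of values in all. Its cut-off marks about 1 in 20 independent sets drawn from a normal distribution. The levels were taken without a log and the 30 sets are not independent, so the share marked by chance is not known. Whether the marks hold on a log scale was not tested. It marked 4. For male replicate 2 of Q20 the level stood at 701 kCPM (1 kCPM is 1000 CPM) for mir-143, where the other 3 Q20 males lay between 112 and 134. The same library held 19.2 kCPM of mir-145a against 2.37 to 3.06 in the others. Its ratio of the 2 precursors was not marked. Female replicate 4 of Q175 held 7.98 kCPM of mir-145a against 2.80 to 3.46 in the other 3 females. Male replicate 2 of Q80 held 8.17 kCPM of mir-145a against 3.37 to 3.91. Male replicate 2 of both Q20 and Q80 scored above 5 on principal component 1, at 20.6 and 17.3, and female replicate 4 of Q175 scored -5.37. The part of these scores in the levels was not tested.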

How the results depend on the processing

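Log2 changes of mir-143 and mir-145a were refitted 240 times under alternatives other than single omissions. They kept their direction and stayed above an adjusted p of 0.05 in 210, turned sign in 27 and passed the test with the same sign in 3. Among those that turned sign, mir-143 between the sexes also passed, at 0.54 and 0.64 without the libraries above 5 on principal component 1. With these, 5 of the 240 passed. Over 980 single omissions 941 kept both, 37 turned sign and 2 passed. The cause of each change was not tested.

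Leaving out the libraries above 5 on principal component 1 took out every male library above 200 kCPM of mir-143. mir-143 then changed by 0.54 between the sexes over all libraries, 0.22 in WT and Q175 and 0.64 in Q20 to Q140. Its change was 0.15 for Q111, 0.035 for Q140, 0.087 per 100 repeats and -0.013 for Q20 against WT. mir-145a then changed by 0.83 and 0.89 between the sexes (all libraries, Q20 to Q140), 0.16 for Q80, 0.62 for Q111, 0.70 for Q140, 0.61 per 100 repeats and -0.027 for Q20 against WT. For Q175 against WT this omission left females alone among Q175, so its values of -0.17 for mir-143 and -0.089 for mir-145a are those of the female comparison, although both are counted above as turned. With limma on log2(RPKM + 1), mir-143 changed by 0.068 and 0.15 between the sexes, 0.12 for Q92 and 0.085 for Q175 against Q20. mir-145a changed by 0.43 between the sexes over all libraries (limma adjusted p = 0.0255), in a fit where 153 of 356 precursors passed. It changed by -0.0047 for Q175 against WT, 0.26 for Q80, 0.18 for Q111, 0.024 for Q140 and 0.070 per 100 repeats. On this scale the median log2 change of all precursors lay between -0.32 and 0.22 over the 15 comparisons. Lane as a covariate gave -0.035 for mir-145a in Q92, and scaling without the 5 most abundant precursors gave 0.024 for it in Q175 females against WT.

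With the replicate block, mir-143 changed by 0.024 between the sexes in Q20 to Q140 and mir-145a by -0.067 for Q175 against WT. The block called neither precursor in any of 30 fits and turned no other sign. It left 0 calls over all precursors for Q175 against WT, Q80, Q140 and the slope, 2 for Q92 and 1 for Q175 males. The numbers did not pair the libraries.

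Single omissions gave these ranges. Between the sexes over all libraries mir-143 ran from -0.24 to 0.045 and mir-145a from 0.17 to 0.51. In Q20 to Q140 they ran from -0.17 to 0.18 and from 0.12 to 0.56. For Q80 they ran from -0.97 to 0.047 and -0.52 to 0.47, for Q92 from -0.29 to 0.47 and -0.091 to 0.78, and for Q111 from -0.95 to 0.076 and -0.60 to 0.58. mir-145a ran from -0.67 to 0.39 for Q140, -0.36 to 0.41 per 100 repeats, -0.083 to 0.25 for Q175 against WT and -0.017 to 0.80 for Q20 against WT. In Q175 females against WT the ranges were -0.28 to 0.041 for mir-143 and -0.55 to 0.22 for mir-145a. For Q175 against Q20 they were -0.41 to 0.35 and -0.77 to 0.14. Leaving out male replicate 2 of Q20 gave 14 of the 39 values that turned or passed, and the fit of mir-145a in Q92, at 0.012, turned with 10 other libraries. Female replicate 1 of WT turned both precursors in Q175 females, to 0.041 and 0.22, and female replicate 4 of Q175 turned mir-145a in Q175 against WT, to -0.083.

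Counts of precursors called moved more. Q175 against WT (14) gave 6 with DESeq2 size factors, 1 with scaling without the 5 most abundant, 34 in DESeq2, 2 with no filter, 0 without the libraries above 5 on the component and 0 to 37 with single omissions. Q80 (5) gave 1, 0, 0 (no filter), 9 (limma), 8 (component), 0 without the 2 Q140 libraries, 0 with lane and 0 to 14. Q92 (14) gave 7 with DESeq2 size factors, 2 with limma, 5 without the libraries above 5, 4 without the 2 Q140 libraries and 1 to 18. Q111 (0) gave 2 with limma and 0 to 2. Q140 (1) gave 5 with either scaling, 17 in DESeq2, 0 with no filter, 4 with limma, 0 with either set of libraries left out and 0 to 6. The slope (1) gave 0 without the 5 most abundant, with no filter, with lane and without the 2 Q140 libraries, 6 in DESeq2, 2 without the libraries above 5 and 0 to 2. Q175 males (12) gave 4 without the 5 most abundant, 25 in DESeq2, 2 with no filter and 0 to 26. The Q175 and sex interaction (0) gave 0 to 4, and sex in WT and Q175 (94) gave 16 without the libraries above 5. That omission left 0 Q175 males, so it gave no value for Q175 males or for that interaction. Lane, and the 2 Q140 libraries, were not part of some fits, which have no value for them.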
